A study of Mus musculus with 53 samples.

Results

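Ribosomal protein genes encode the proteins of the small (Rps) and large (Rpl) subunits of the cytosolic ribosome. All protein-coding genes whose symbol starts with Rps or Rpl and a number, together with Rplp0, Rplp1, Rplp2 and Rpsa, were taken, and kinases, pseudogenes and genes of the mitochondrial ribosome were left out. This gave 86 of the 53379 genes in the count tables. Of these, 77 are canonical subunit genes (31 of the small and 46 of the large subunit). The remaining genes are paralogs of a canonical gene, the retrocopy Rps27rt, and Rps19bp1 and Rpl7l1, which are not subunits.

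The data were RNA-seq counts from laser-captured hypothalamic tissue of C57BL/6 mice, taken at 13 to 14 weeks of age. The paraventricular nucleus (PVN) and the arcuate nucleus (ARC) are hypothalamic centres of appetite and energy balance. Wild-type (Nnat+/+, WT) mice were compared with littermates that inherited a null allele of the imprinted gene Nnat from the father (Nnat+/-p). In that allele a lacZ cassette replaces coding exons in every cell. On chow, female PVN was sampled in 4 WT mice weighing 24.1 to 24.6 g, 3 obese Nnat+/-p mice (31.5 to 33.35 g) and 3 non-obese Nnat+/-p mice (20.4 to 23.9 g). Male PVN on chow was sampled in 3 WT mice (31.4 to 33.5 g). It was also sampled in 4 obese Nnat+/-p (38.8 to 46.5 g) and 3 non-obese Nnat+/-p mice (27.4 to 34.3 g). Male ARC on chow gave 2 WT, 4 obese and 4 non-obese Nnat+/-p libraries, in the same weight ranges as in PVN. Replicates 39 and 40 of the last group share a labelled weight of 34.3 g and may be 1 mouse. Replicates 1 and 2 of female WT PVN share 24.1 g, so the 4 WT mice given for that group may be fewer. On a 45% high-fat diet (HFD), 6 WT (37.4 to 42.9 g) and 3 Nnat+/-p libraries (38.2 to 43.9 g) came from male PVN. From male ARC on HFD came 6 WT (37.4 to 43.9 g) and 4 Nnat+/-p libraries (38.2 to 43.1 g). Most labelled weights of the male mice occur in both nuclei, as libraries of the same mouse would.

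The 49 libraries used held 1480000 to 30230000 counts. The share of mitochondrially encoded RNA was 16.5% to 48.8%. Levels are given as CPM, the counts of a gene scaled to a common library total. For Nnat and the cell markers this was the plain library total. Nnat, the targeted gene, was at 224.1 to 584.3 CPM in the WT libraries (n = 21) and at 0.268 to 13.7 CPM where the paternal allele was null (n = 28), and no library went against its genotype label. In the library labelled PVN chow WT replicate 15, 5 PVN neuron markers summed to 9.77 CPM, against a median of 1075 in male PVN, and 5 ARC neuron markers to 190.6 CPM, against medians of 31.3 in male PVN and 189 in male ARC. A library labelled ARC chow WT with the same weight of 32.45 g (replicate 35, left out for its low total) had 681.8 CPM of the PVN markers, against a median of 22.8 in male ARC. By these markers both go against their labelled nucleus, so the chow WT arm of PVN holds 1 library with these markers at levels near those of ARC. Replicate 24 of the PVN HFD WT group had 150.3 CPM of the PVN markers. The summed level, the counts and medians, and the genes called in PVN are also given without replicates 15 and 24. In these bulk samples, fewer cells of a type and less RNA per cell cannot be told apart.

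Ribosomal protein mRNAs are among the most abundant of any cell, and their products are made in step because the ribosome holds 1 copy of nearly every one. Their translation is controlled together through a short run of pyrimidines at the very start of the mRNA (the TOP motif), which links it to nutrient signalling through mTOR. A TOP-like start was defined as a C followed by at least 4 bases that are each C or T. At an annotated RefSeq start (GRCm38.p6), 14 of the 66 genes found in the promoter table began with such a run (21.2%), against 3% of 27025 genes. Within 4 bases of a start it was found for 29 of the 66 (43.9%), against 16.4% of all genes. Many starts in the table did not carry the run, which is a property of these annotated letters and says nothing about translation.

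The windows below show 10 bases before the annotated start and 20 from it on, for genes that the comparisons turn on. Rpl35a had 3 annotated starts, Rps21 had 2 and Rps19 had 3. In such genes a start with a run was shown where any had it. Capitals mark the run, and windows without capitals had none within 4 bases of the start. Rpl35a lies at chr16:33056472-33056501 (plus strand), Rps21 at chr2:180257369-180257398 (plus), Rpl31 at chr1:39367841-39367870 (plus), Rps19 at chr7:24884582-24884611 (plus) and Rps25 at chr9:44407704-44407733 (plus).
Rpl35a: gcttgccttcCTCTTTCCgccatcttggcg
Rps21: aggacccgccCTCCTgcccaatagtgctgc
Rpl31: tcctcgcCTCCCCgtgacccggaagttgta
Rps19: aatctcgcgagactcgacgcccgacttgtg
Rps25: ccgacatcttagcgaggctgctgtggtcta

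The 86 genes were measured at very unequal levels. Per kilobase of merged exons, the P-stalk gene Rplp1, whose product recruits elongation factors, was highest, with a median of 334 CPM per kb over the 49 libraries. Rpl8 (188.8), Rpl4 (128.4) and Rps15 (48.5) were also among the highest. At the other end, Rpl24, Rpl23a, Rps27rt, Rpl3l, Rpl10l and Rpl39l had a median of 0 CPM. Rpl3l is known from muscle, and Rpl10l and Rpl39l from testis. Rpl24 and Rpl23a are canonical subunit genes, and Rpl24 had counts in only 3 of the 49 libraries. In all, 36 genes had counts in every library and 18 had a median under 1 CPM. The 5 with a median over 100 CPM took 47.6% of all counts of the 86 genes. Together the 86 genes took 0.15% to 0.325% of the counts of a library used here. Their sums are therefore not read as the full level of ribosomal protein mRNA.

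The stalk genes differed as well. The median over libraries was 12.9 CPM per kb for Rplp0 and 10.5 for Rplp2, against 334 for their partner Rplp1. Rpsa, which encodes a small subunit protein also known as the laminin receptor, stood at 0.812 CPM per kb. Of the paralogs, Rpl7l1 (5.42 CPM per kb) and Rpl22l1 (3.37) lay below Rpl7 (23.4) and Rpl22 (13.1). Rps27l (2.81) lay above Rps27 (0.961), and Rpl36al (0.588) below Rpl36a (1.84). Rpl3 (5) and Rpl39 (1.41) had counts in 49 and 45 libraries.

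Reads of 50 bases that match more than 1 gene may be dropped or divided when they are counted, and ribosomal protein genes have many processed pseudogenes. The median gene of the 86 had 64.2% of its transcript 50-mers to itself, against 97.2% for 78 mitochondrial ribosomal protein genes and 99.1% for 25 ribosome biogenesis genes. A 50-mer was shared with an annotated pseudogene in 82 of the 86 genes. Among the 12 genes with at most 25% own 50-mers the highest level was 2.92 CPM per kb, and the 23 genes with over 75% held 61% of the counts. Across genes, which are not independent replicates, the share of own 50-mers was compared with the level. The Spearman rho was 0.37 over the 86 genes and 0.5 over the 77 canonical genes. Rplp1 stood apart, with 40% own 50-mers and the highest level. Under 1 CPM per kb lay 6 of the 12 genes and 7 of the 23. In male PVN the 86 genes summed to a mean of 2359 CPM over plain library totals. The biogenesis genes summed to 1198 and the mitochondrial ribosomal protein genes to 1079. The part that shared sequence plays in these levels was not tested, and levels of different genes are therefore not read as relative mRNA abundance.

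**Figure D1:**
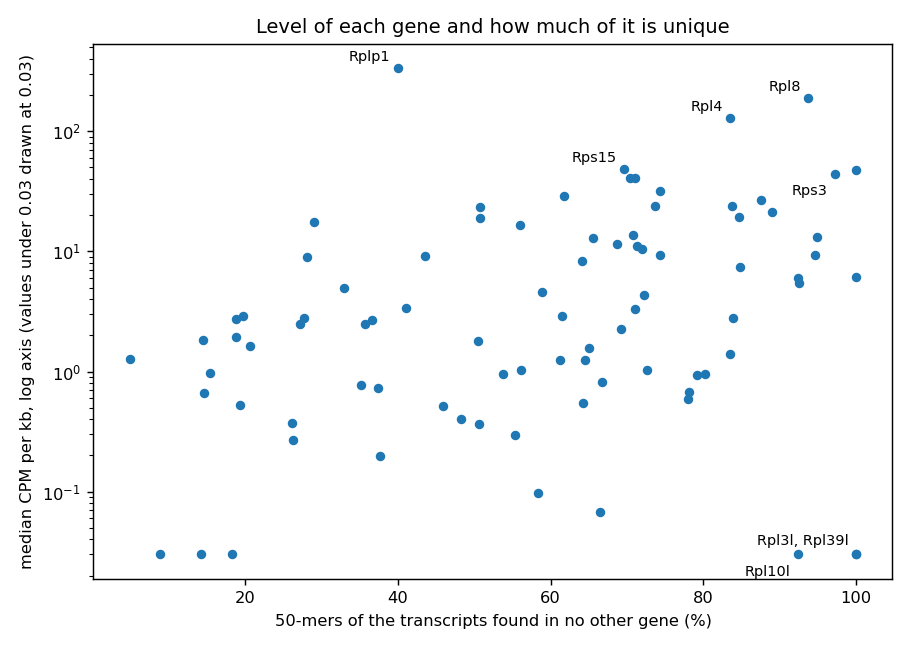
Median CPM per kilobase over 49 libraries (log axis) against the share of a gene's transcript 50-mers found in no other gene, 1 point for each of 86 genes. Genes with few 50-mers of their own lie low, Rplp1 lies high at 40%, and the paralogs Rpl3l and Rpl39l lie at 0 with 100%.

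The order of the genes was alike in the 3 tables. The Spearman rho of the levels across the 86 genes was 0.99 between male PVN and male ARC and 0.98 between male and female PVN.

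Summed over the 86 genes, the level was 2060 ± 194 CPM (SD, n = 3) in WT PVN on chow and 2666 ± 327 (n = 6) on HFD. In ARC it was 1772 ± 198 (n = 2) on chow and 2324 ± 396 (n = 6) on HFD. The 3 PVN chow libraries stood at 1870, 2053 and 2258, and the 6 HFD libraries ran from 2209 to 2964 with a median of 2770, so that 1 HFD library (replicate 24) lay below the highest chow library (replicate 15). In ARC the chow libraries stood at 1632 and 1912 and the HFD libraries at 2000 to 3061, with no overlap. Nnat+/-p mice on HFD gave 2616 ± 53.9 (n = 3) in PVN and 2217 ± 278 (n = 4) in ARC. On chow the Nnat+/-p groups lay at 2101 ± 285 (obese, n = 4) and 2088 ± 440 (non-obese, n = 3) in PVN, and at 1856 ± 182 and 1694 ± 384 (n = 4 each) in ARC. Female PVN, on chow only, lay at 2167 ± 285 in WT, 2326 ± 141 in obese and 2159 ± 29.6 in non-obese mice. These values were scaled by TMM apart in female PVN, male PVN and male ARC. Sums are therefore not compared between the nuclei or the sexes. Over plain library totals the WT means were 2165 and 2638 in PVN and 1790 and 2088 in ARC, and in ARC the HFD libraries (1502 to 2615) then overlapped the chow libraries (1658 and 1921). Without replicates 15 and 24 the TMM-scaled WT sums in PVN were 1962 ± 129 (n = 2) on chow and 2757 ± 266 (n = 5) on HFD, and the groups did not overlap.

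**Figure D2:**
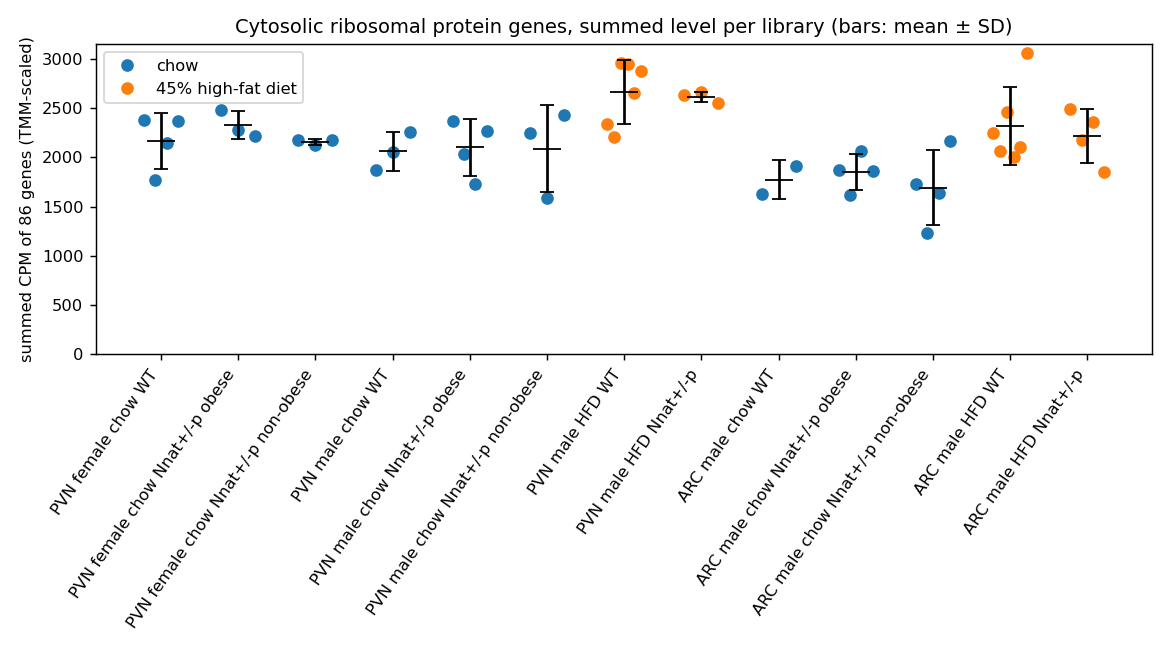
Summed TMM-scaled CPM of the 86 genes in each library (points), by group, with the mean and SD as bars and the diet as colour. Scaling was done apart in female PVN, male PVN and male ARC, so heights are not compared between these. The 6 HFD libraries of WT PVN lie between 2209 and 2964 and the 3 chow libraries between 1870 and 2258.

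The diet comparison in WT mice sets HFD against chow without the Nnat null allele. Every WT mouse on HFD weighed more than every WT male on chow, so diet and body weight cannot be told apart. Library totals in WT PVN were 3192000 to 6140000 counts on chow and 5583000 to 8560000 on HFD. In WT ARC they were 3717000 to 3984000 on chow and 3592000 to 18060000 on HFD. The part of depth in the results was not tested. Of the genes that passed the count filter, 74 of 86 were tested in each nucleus. In PVN 2 of the 74 rose at an adjusted p under 0.25 and none fell, while over all genes tested 0.313% rose and 1.43% were called in either direction. In ARC 3 of the 74 rose and none fell, where 0.495% of all genes rose and 1.16% were called in either direction. The median log2 fold change of the tested members was 0.36 in PVN, against -0.03 over all genes, with 55 above 0. In ARC it was 0.46, against 0.02, with 64 above 0. Over all genes, 47.5% and 51.4% lay above 0. Without replicates 15 and 24, 8 of 77 members rose in PVN and none fell, where 1.63% of all genes rose, and the median was 0.47 against -0.01 over all genes. By labelled weight the nuclei came largely from the same mice, so they are not independent.

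Both subunits had such medians. For the small subunit, whose proteins help decode the mRNA, the median was 0.4 in PVN (28 genes tested) and 0.55 in ARC (28). For the large subunit, which forms the peptide bond, it was 0.3 (42) and 0.39 (41). In PVN 7 of the 74 genes (9.46%) had all HFD libraries above all chow libraries, against 3.06% of all genes. In ARC it was 13 (17.6%) against 6.76%.

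In ARC, Rps14, a protein of the small subunit platform, had 39.5 and 52 CPM on chow and a median of 103 on HFD, with libraries from 63.4 to 144. Its log2 fold change was 1.13 ± 0.32 (SE), with an edgeR adjusted p of 0.212. Every HFD library lay above both chow libraries. Rps21, another small subunit gene, had 11.4 and 7.99 CPM on chow and 18.2 to 37.6 CPM on HFD, and its log2 fold change was 1.34 ± 0.4 (edgeR adjusted p = 0.231). Rpl35a, of the large subunit, had 8.21 and 9.49 CPM on chow and 14.7 to 30.3 CPM on HFD (log2 fold change 1.33 ± 0.38, edgeR adjusted p = 0.221). The groups did not overlap for either gene.

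In PVN, Rps19, a small subunit gene mutated in an inherited anaemia, had 24.6, 36.1 and 25 CPM on chow. On HFD its libraries ran from 30.4 to 68, so that the groups overlapped, and its log2 fold change was 0.79 ± 0.25 (edgeR adjusted p = 0.248). Without replicates 15 and 24 it was 0.81 ± 0.29 (edgeR adjusted p = 0.221). Rpl31, of the large subunit, had 0 counts in all 3 chow libraries and 6 to 27 counts in each of the 6 HFD libraries (edgeR adjusted p = 0.141, and 0.227 without replicates 15 and 24). Against a floor of 3 counts over the chow group it was at least 9.78-fold higher on HFD. The same gene had 1 to 25 counts in each of the 7 Nnat+/-p PVN chow libraries.

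**Figure D3:**
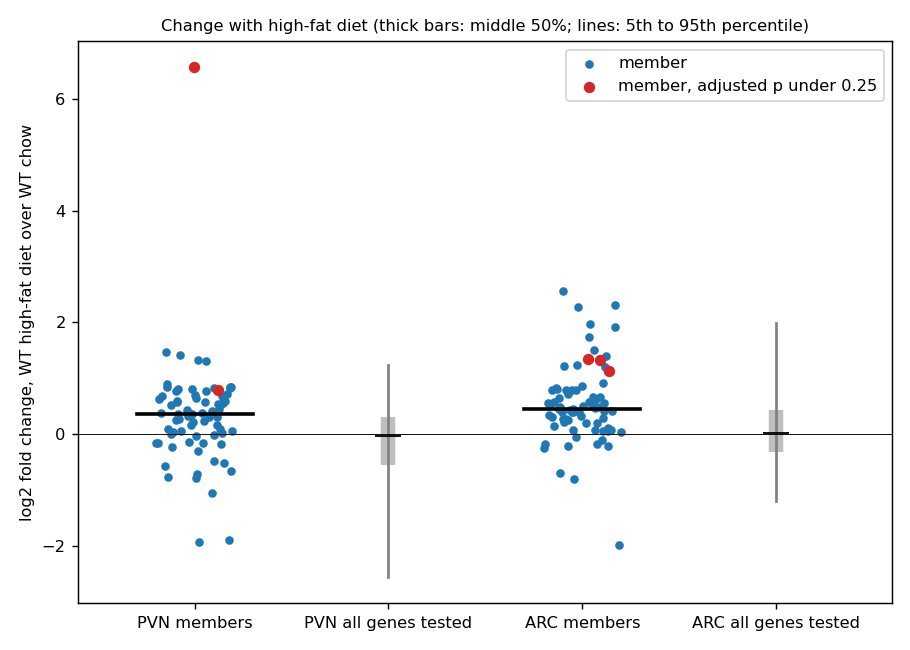
Log2 fold change of WT HFD over WT chow for the 74 members tested in each nucleus (points, red where the edgeR adjusted p was under 0.25), with the members' median as a black line. Beside them, all genes tested are given by their median, middle 50% and 5th to 95th percentile. The members' medians are 0.36 in PVN and 0.46 in ARC and those of all genes are near 0.

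These calls rest on few libraries. The count in PVN was 0 without replicate 13 or without replicate 27, 1 without replicate 25, 26 or 28, 6 without replicate 24, 7 without replicate 14 and 8 without replicate 15. In ARC it was 0 when replicate 33, 34, 44, 46 or 49 was left out, and 0 with plain library totals. Leaving out replicate 33 or 34 leaves 1 chow WT library, which the fit assumes to vary like the other groups. With replicates 39 and 40 summed it was 4. With plain library totals the median over all genes in ARC moved to -0.15 and that of the members to 0.29. The median of the members stayed above 0 in each of these fits, at 0.3 to 0.49 in PVN and 0.35 to 0.62 in ARC over the leave-one-out fits.

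Lists related to the ribosome held no called gene in this comparison. Of the mitochondrial ribosomal protein genes, edgeR called 0 of 76 in PVN and 0 of 75 in ARC, with medians of 0.11 and 0.02 (at an unadjusted p under 0.05, 4 rose and 1 fell in PVN, and 2 rose and 2 fell in ARC). Of 25 ribosome biogenesis genes, none was called by edgeR in either nucleus (at an unadjusted p under 0.05, 1 fell in PVN and 1 rose in ARC). A further list of 17 genes held translation factors together with genes of other functions, such as Vim, Hnrnpa1 and Tpt1. None of these 17 and none of 12 mTOR pathway genes was called by edgeR (at an unadjusted p under 0.05, 1 mTOR pathway gene rose in PVN). In that order, the medians of these lists were 0.17 and -0.08 in PVN and 0.08 and 0.09 in ARC. Fau, which encodes a ribosomal protein as a fusion and falls outside the symbol rule, and Rack1, a protein of the small subunit head, were not called. Sums of cell markers are over plain library totals, whereas the levels of the members are TMM-scaled. The sum of the oligodendrocyte markers moved with diet in ARC: it was 788.6 to 924.1 CPM in the WT chow libraries and 194 to 689 in the WT HFD libraries. The neuron markers summed to 1590 to 1742 CPM in the chow and 648.6 to 1641 CPM in the HFD libraries. Of 6 nuclear long non-coding RNAs, none was called by edgeR in ARC and 3 rose at an unadjusted p under 0.05, with a median of 0.55. The 5 ARC neuron markers, each with counts in both groups, summed to 71.02 and 77.81 CPM in the chow and 143.1 to 738.4 CPM in the HFD libraries of ARC, with no overlap. In PVN the PVN neuron markers summed to 9.77 to 1740 CPM in the WT chow and 150.3 to 2277 CPM in the WT HFD libraries. The part of these lists in the result was not tested.

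The diet change in Nnat+/-p mice, a comparison chosen after the data were seen, has no library in common with the one in WT mice. HFD was set against the mean of the obese and non-obese chow groups. In PVN the library totals on chow were 3477000 to 5041000 counts (obese) and 2268000 to 5570000 (non-obese). On HFD they were 6668000 to 7834000, with no overlap. In ARC 10 of the 74 genes rose and none fell, where 2.98% of all genes rose and 3.87% were called in either direction, and the median was 0.29 against -0.03 over all genes. Of the 10, 6 are canonical small subunit genes, 3 are canonical large subunit genes and 1 is the paralog Rpl22l1. Among all 86 members, 31 are canonical small and 46 canonical large subunit genes, and a difference between the subunits was not tested. Rps14 had 25 to 89.8 CPM in the 8 chow libraries and 56.6, 95.2, 101 and 108 on HFD (log2 fold change 0.94 ± 0.22, edgeR adjusted p = 0.0242). The groups overlapped. At an unadjusted p under 0.05 there were 23 members, against 10.2% of all genes. Rps25, a small subunit gene needed for internal initiation on some viral RNAs, had 0.998 to 8.53 CPM on chow and 5.41, 10, 18.5 and 28 CPM on HFD (log2 fold change 1.82 ± 0.44, edgeR adjusted p = 0.0273), and the groups overlapped in 1 HFD library. Rplp2, of the stalk, had 4.44 to 18.5 CPM on chow and 19.4, 19.8, 28.5 and 29.9 CPM on HFD (log2 fold change 0.94 ± 0.25, edgeR adjusted p = 0.0605), with no overlap. With plain library totals the count was 4, and with replicates 39 and 40 summed it was 10. It was 1 without replicate 50, 3 without replicate 51 and 5 without replicate 52, all on HFD, and 17 without the chow replicate 43. The 5 ARC neuron markers moved with diet here too, at 52.71 to 193.6 CPM in the 8 chow and 241.9 to 394.1 CPM in the 4 HFD libraries, with no overlap, and their part in the result was not tested. In PVN none of the 74 was called by edgeR in this comparison (10 rose at an unadjusted p under 0.05 and none fell, against 7.05% of all genes in either direction), where 0.00569% of all genes rose and 0.239% were called in either direction, and the median was 0.24 against -0.04.

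**Figure D4:**
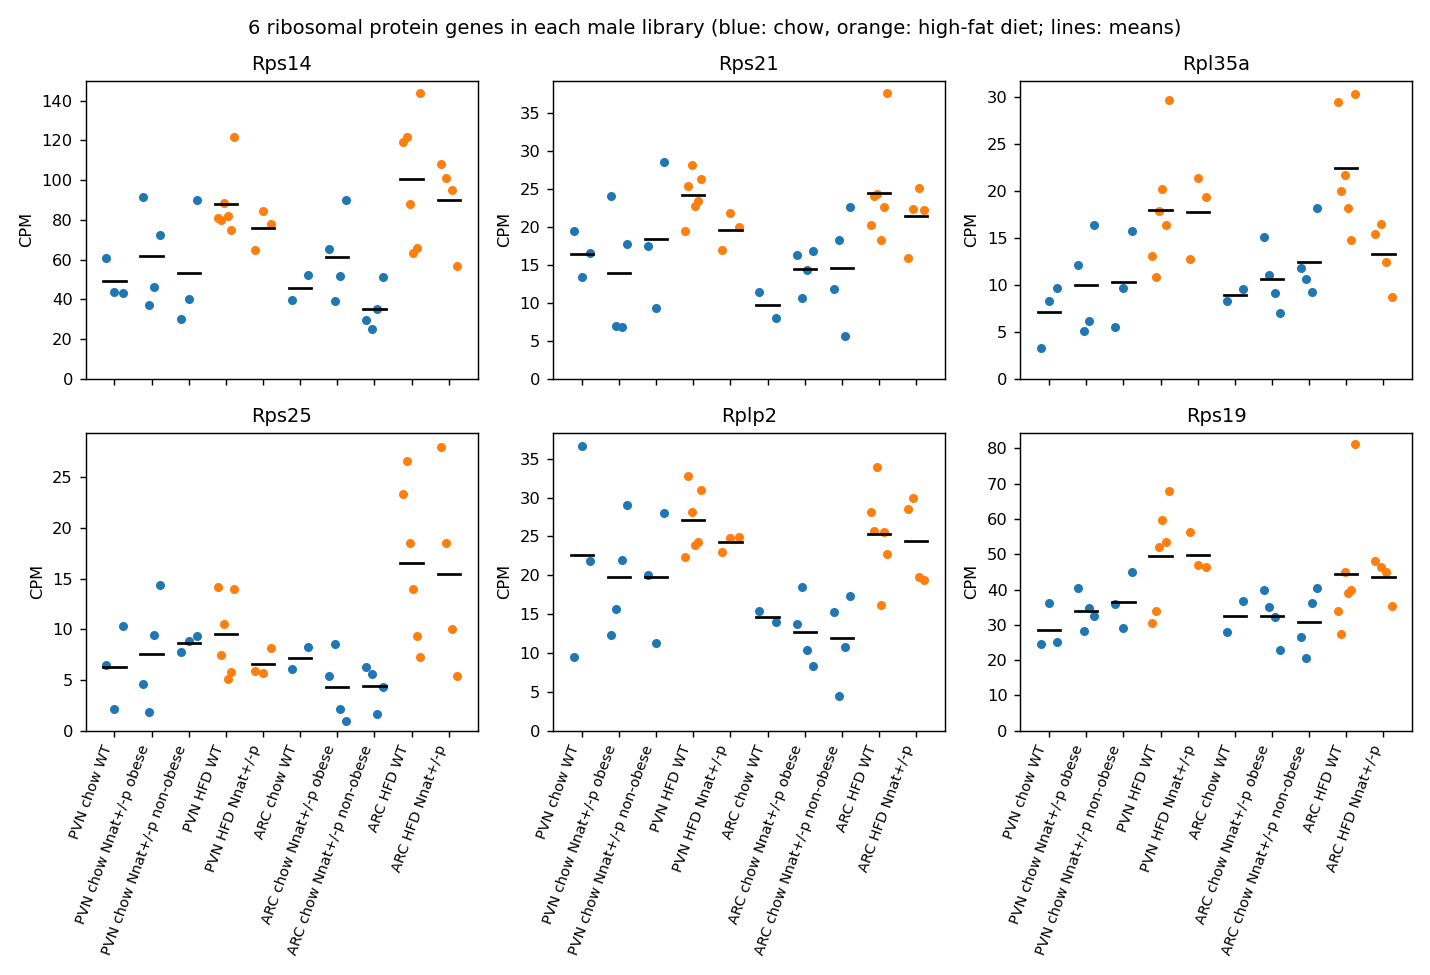
CPM of 6 genes in each male library, by nucleus, diet and group (blue for chow, orange for HFD, lines for means). Rps14, Rps21 and Rpl35a in ARC WT mice are separated by diet, while Rps19 and Rps25 overlap between diets in several groups.

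The difference of the diet change between the genotypes was tested directly, also as a comparison added after the data were seen. None of the 74 members differed by edgeR in PVN or in ARC (at an unadjusted p under 0.05, 3 in each nucleus, against 3.85% and 3.83% of all genes). Over all genes 0% and 0.0127% were called.

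On HFD, Nnat+/-p mice did not show a called change in any member relative to WT. None of 74 was called by edgeR or DESeq2 in PVN (0 at an unadjusted p under 0.05, against 0.99% of all genes) or in ARC (1 higher and 3 lower at an unadjusted p under 0.05, against 4.54%), where 0.00569% and 0.0127% of all genes were called in either direction. The smallest p in PVN was that of Rpl21 (log2 fold change -1.37 ± 0.77, edgeR adjusted p = 1), and Rps20 was also among the smallest. In ARC it was Rpl35a (-0.76 ± 0.28, edgeR adjusted p = 0.999), then Rpl10a and Rpl31. The median of the members was -0.06 in PVN and -0.07 in ARC, against -0.05 and -0.02 over all genes. Without replicates 15 and 24, edgeR called 0 of 77 members in PVN, with a median of -0.1.

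On chow, obese and non-obese Nnat+/-p mice were compared with WT and with each other, to ask whether the members follow the genotype or the body weight. In male PVN 0 of 67 members were called by edgeR in any of these comparisons, and the same held for DESeq2, where 0.0256% (obese against WT), 0.0128% (non-obese against WT) and 0% (obese against non-obese) of all genes were called. At an unadjusted p under 0.05 there were 1, 3 and 1 members in these comparisons, against 3.52%, 2.56% and 1.66% of all genes. Rpl13 and Rpl14, both of the large subunit, had the smallest p: Rpl13 in obese mice (1.59 ± 0.7) and Rpl14 in non-obese mice (-1 ± 0.34), both against WT. Without replicate 15 edgeR called 0 of 72 members in each comparison, and these values were 1.55 ± 0.83 and -1.04 ± 0.39. In female PVN 0 of 74 were called by edgeR, where 0.0129%, 0.00646% and 0% of all genes were called in the same 3 comparisons, and Rpl38 was at -4.4 ± 2 in obese and -5.37 ± 2.1 in non-obese mice against WT (edgeR adjusted p = 1 in both). Its WT libraries stood at 0.837, 19.8, 4.04 and 0.729 CPM, with the highest values in replicates 2 and 3, and the Nnat+/-p libraries at 0 to 0.528 CPM. Without replicates 2, 3 and 10 the log2 fold changes of Rpl38 were -1.4 ± 2.75 and -1.91 ± 3.15. At an unadjusted p under 0.05 there were 1, 1 and 0 members, against 3.18%, 4% and 3.06% of all genes. DESeq2 called 1 member in non-obese females against WT. Female replicates 2, 3 and 10 were high in Malat1, and edgeR called 0 members without them too. In male ARC 0 of 65 were called by either tool, where 0.0205%, 0.0136% and 0.00682% of all genes were called by edgeR, and 1, 2 and 3 members had an unadjusted p under 0.05, against 2.59%, 1.9% and 4.25% of all genes. Rpl18 had the smallest p in obese ARC against WT (3.36 ± 0.91, edgeR adjusted p = 1). Its WT libraries stood at only 0.53 and 0.999 CPM, and its obese libraries at 4.7 to 11.4 CPM. Obese and non-obese ARC differed most for Rps14 (0.78 ± 0.25, edgeR adjusted p = 0.999). Over the 9 comparisons the median of the members ran from -0.12 to 0.13.

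PVN was compared with ARC in WT mice on HFD, where the nucleus and the sequencing pool cannot be told apart. Of 65 members tested, 13 were called by edgeR, all lower in PVN, while over all genes 10.9% were lower and 21.4% were called in either direction. The median of the members was -0.23 against 0 over all genes, with 53 of 65 below 0. Rps25 had the smallest p (log2 fold change -1.19 ± 0.33, edgeR adjusted p = 0.0349). Rps7 (-1.31 ± 0.42), Rps14 (-0.58 ± 0.2) and Rpl35a (-0.7 ± 0.24) were also lower, with edgeR adjusted p values of 0.0713 to 0.0888. No member separated the libraries of the nuclei fully, where 1.32% of all genes were higher and 1.67% lower in every PVN library than in every ARC library. Without replicate 24, edgeR called 14 of 66 members lower and 2 higher (Rpl22 and the paralog Rpl7l1), where 12.6% of all genes were lower and 11.8% higher, and the median was -0.2. Of the 13, 7 are canonical small subunit genes, which make up 31 of the 86 members. A difference between the subunits was not tested.

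The direction of this comparison depended on the scaling. With plain library totals the median over all genes moved to 0.53, the median of the members was 0.29, and edgeR called 21 members (32.3%) higher and 2 (3.08%, Rps25 and Rps7) lower in PVN, where 62.8% of all genes were higher and 3.95% lower. Under either scaling the members lay 0.23 to 0.24 below the median of all genes on the log2 scale. A change of scaling moves all genes by nearly the same amount, so this gap could hardly change. That it stayed is therefore no further support for it.

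**Figure D5:**
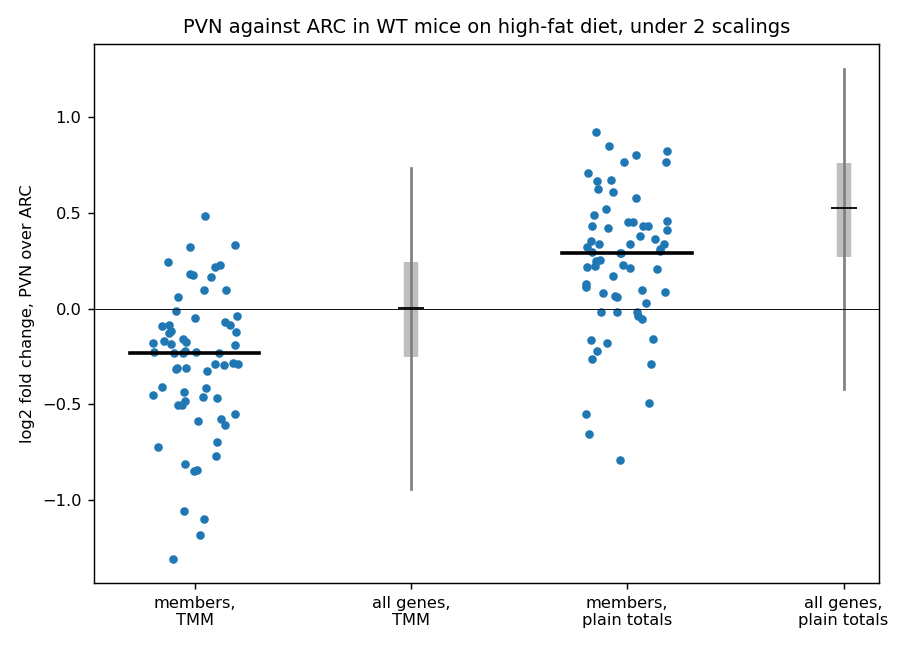
Log2 fold change of PVN over ARC for 65 members (points, median as a black line) and for all genes tested (median, middle 50% and 5th to 95th percentile), under TMM and under plain library totals. The members lie below the median of all genes in both, at -0.23 and 0.29, while the sign of their own median changes.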

How the data were processed

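RNA-seq counts per gene were deposited as 3 tables (female PVN, male PVN, male ARC), one per sequencing pool. Per the submitters' processing notes the reads were aligned with STAR 2.5.0a to GRCm38. The counting tool, annotation release and strand setting are not given in the sources used here. Libraries were made from laser-captured tissue with a pico-input total RNA kit, and 50-base single-end reads were sequenced. Obese and non-obese groups follow the labelled weights.

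Symbols came from GENCODE vM21 (53274 of 53379 IDs matched). The members and gene lists were chosen with earlier results of these data known. Of 53 libraries, 4 were left out: 3 with low totals and 1 whose label and table disagree. Counts were tested with edgeR 4.0.16 in R 4.3.3 (filterByExpr with a minimum count of 10, TMM, quasi-likelihood test, Benjamini-Hochberg adjustment over all genes tested, adjusted p under 0.25, the threshold of the study's methods). Fits held the 3 chow groups of a nucleus and sex, or all male groups of a nucleus for diet. DESeq2 1.42.0 was an alternative. The fit function was run on counts simulated for the WT diet comparison in PVN, with large changes and the same dispersion for every gene. That run does not cover small changes, unequal spread or the smallest groups. CPM of the members were TMM-scaled per table unless plain library totals are named. CPM of Nnat and the sums of marker lists were over plain library totals. Per-kilobase levels used merged exon length. Each named gene was a called member (at most 5 per direction by smallest p), one of 3 with the smallest p where none was called, a paralog, stalk gene or Rpsa, or among the 5 highest or lowest. Labelled weights differ between most libraries of a group, as separate mice would, and every p measures the spread between these libraries. Results for some genes that this rule names are not reported here. Intervals and floors (3 counts) cover counting error only.

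In the PVN to ARC comparison, 5 pairs of libraries were matched by labelled weight. Their deviations from the group means correlated at 0 to 0.17.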

Additional observations from a re-analysis of the deposited data

Results flagged for a closer look

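Within groups of 4 to 6 libraries, the summed level and 17 of the members called in some comparison were tested for a library far from the others. Of 126 values, 14 stood apart. For normally distributed values chance gives about 1 in 20, but some CPM here are near 0, so no excess is read from the 14. In female PVN WT mice on chow, Rps29 was 0.0912 CPM in replicate 4 against 0 in the others and Rpl39 was 15.9 CPM in replicate 3 against at most 1.6. Replicate 3 had high Malat1.

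In the PVN HFD WT group, replicate 28 was high for Rps14 (122 CPM), replicate 25 for Rpl32 (45.7) and replicate 26 for Rps27l (6.89).

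In male ARC on chow, Rps15 was 20 CPM in replicate 42 (obese Nnat+/-p) against at least 27.2, and Rpl39 was 2.14 CPM in replicate 43 (non-obese) against at most 0.249. In the ARC HFD WT group, replicate 49 was high for Rps21 (37.6 CPM) and Rps19 (81.3) and low for Rpl31 (0.572). Replicate 45, the deepest ARC library, was high for Rps29 (2.67) and Rps7 (13.9), and replicate 46 for Rpl32 (39.9). In the ARC HFD Nnat+/-p group, Rpl41 was 31.5 CPM in replicate 53 against at least 62.5.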

How the results depend on the processing

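The members' median log2 fold change with HFD in WT mice kept its sign under every alternative run. It moved beyond the spread in ARC with the low-total libraries (0.67). In ARC that alternative adds replicate 35 to the chow WT group, a library whose markers go against its labelled nucleus. In PVN the count of called members (2) was 0 at an adjusted p under 0.05, 1 with DESeq2 size factors and with plain library totals, and 7 with no filter beyond a total count over 1, with DESeq2 and without the libraries of conflicting weight (weights that belong to the other genotype in the other nucleus). It was 8 without the libraries 15 and 24, and ran from 0 to 8 when 1 library was left out. In ARC the count (3) was 0 at an adjusted p under 0.05, with plain library totals and without the libraries of conflicting weight, 5 without the filter and with DESeq2, 9 with only the 2 groups, and 6 with the low-total libraries. It ran from 0 to 3 when 1 library was left out. The Nnat+/-p ARC count (10) was 4 with plain totals and ran from 1 to 17 when 1 library was left out. PVN against ARC (13) gave 1 at an adjusted p under 0.05, 20 without the filter, 23 with plain totals (reversed, as was the median, 0.29) and 9 to 16 when 1 library was left out. With the mouse as a replicate block over the 5 pairs it was 18, against 12 for the same libraries without the block, and not every pair correlated best with its own mouse. No paired analysis was possible for the other comparisons because their groups share no animal or replicate number. On chow, 1 member was called by DESeq2 in non-obese females against WT, and with the low-total libraries 2 in obese females against WT and 1 against non-obese. The mean log2 CPM of the members moved its place among the groups in 1 group, non-obese Nnat+/-p male PVN on chow (2.84). The alternatives with plain totals in all fits, without the libraries 2, 3 and 10, the added comparisons with their alternatives, and the values of single genes without libraries that stand apart were chosen after seeing the data. The low counts of many members limit what can be seen: 18 of 86 had a median under 1 CPM.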

Other observations

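The 4 libraries that entered no comparison held these shares of their counts on the 86 genes. A WT female PVN library (replicate 5) had 0 of 2302 counts, with a 95% Wilson upper limit of 0.167%. The floor of 3 counts would be 0.13% of its counts. An obese Nnat+/-p female PVN library (replicate 7) had 370 of 812815 counts, or 0.0455% (95% Wilson interval 0.0411% to 0.0504%). A WT male ARC chow library (replicate 35) had 796 of 271324 counts, or 0.293% (0.274% to 0.314%). Replicate 32, which has no group here, had 20544 of 7348988 counts, or 0.28% (0.276% to 0.283%).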
